A study of Mus musculus with 12 samples.

Results

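The Ly6 genes encode small surface proteins, and 8 of them were followed here in tumours of the mouse pancreatic cancer line CR705: Ly6a, Ly6c1, Ly6c2, Ly6d, Ly6e, Ly6g, Ly6i and Ly6k. They were taken by gene symbol from a count table of 43432 genes, and each matched 1 Ensembl gene. The genes were chosen by their CPM (read counts scaled to a library of 1000000) in the AHRKO and WT libraries, with the difference between the genotypes in view, so their levels and fold changes in that comparison are a description and no test of it. Poly(A) RNA-seq gave 6 libraries from tumours of AHRKO CR705 cells, in which the aryl hydrocarbon receptor is labelled as knocked out, and 6 libraries from tumours of WT CR705 cells. The RNA protocol names tumour pieces as the source; other protocol texts speak of plated cells given test compounds, but no sample is labelled with a compound. The sources used here do not give the host mice, their age, the way the receptor was disrupted, whether either line is 1 clone, or whether the replicates came from separate animals. P-values therefore measure the spread between these libraries, which may in part be technical.

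Ly6 proteins share a compact fold held by disulfide bonds, and most are tied to the outer membrane by a glycosylphosphatidylinositol (GPI) anchor. Several serve as surface labels of blood and stromal cells: Ly6C on monocytes and Ly6G on neutrophils are both bound by the Gr-1 antibody, and Ly6A is the stem cell antigen Sca-1. Interferons are known to raise the transcription of Ly6a, Ly6c and Ly6e in mouse cells. All 8 genes lie in one cluster on mm10 chromosome 15, between positions 74762056 and 75159126, and all are protein coding.

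The groups below are those of the labels, since the transcript of the targeted gene did not separate them. Ahr, the aryl hydrocarbon receptor gene, averaged 102 ± 30.6 CPM in the libraries labelled AHRKO and 112 ± 8.18 CPM in the WT libraries (SD, n = 6 each; log2 fold change -0.13 ± 0.17 SE, adjusted p = 0.606, edgeR's quasi-likelihood test). The edited part of the gene is not described, so a count over the whole transcript does not check the labels. Library totals ran between 14772343 and 19944273 counts in AHRKO and between 19293174 and 35881469 counts in WT. AHRKO replicate 1 stood apart: on the first principal component, which held 57.0% of the variance, it lay at 77.7, against -0.43 to 32.0 for the other AHRKO libraries and -46.5 to -22.2 for the WT libraries. Its summed ductal epithelial markers (10 genes, among them Krt8, Krt18, Krt19 and Epcam) came to 628 CPM, against 2632 to 4458 CPM in the other AHRKO libraries and 3083 to 4466 CPM in WT, so the values it moves most are also given without it.

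Levels of different genes are compared here per length, as CPM per kilobase of exon. In the AHRKO libraries Ly6e (219 ± 55.5) and Ly6a (207 ± 123) stood highest, then Ly6c1 (42.5 ± 29.2), Ly6k (9.31 ± 5.44), Ly6c2 (8.88 ± 10.0), Ly6d (3.82 ± 1.91), Ly6i (2.75 ± 3.73) and Ly6g (0.0814). In the WT libraries the order began with Ly6a (97.1 ± 37.5) and Ly6e (82.1 ± 16.1), followed by Ly6c1 (22.2 ± 9.13), Ly6k (8.10 ± 3.97), Ly6d (1.83 ± 1.59), Ly6c2 (0.429 ± 0.305), Ly6i (0.203 ± 0.127) and Ly6g (0.0721; SD, n = 6 in each group). Ly6a and Ly6e lay within each other's spread in both groups, and so did Ly6k, Ly6c2, Ly6d and Ly6i in the AHRKO libraries. Neighbours in the order whose mean ± SD did not meet were Ly6a and Ly6c1 in AHRKO, and Ly6e and Ly6c1, Ly6c1 and Ly6k, and Ly6k and Ly6d in WT. Ly6c2 stood above Ly6d in AHRKO and below it in WT.

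Of the 8 genes, 6 passed the filter on low counts, which asked for 0.512 CPM in at least 6 libraries. Ly6i reached that level in 4 AHRKO libraries and 1 WT library, and Ly6g in none. In the AHRKO against WT fit over 15449 genes, 2 of the 6 tested Ly6 genes were called higher in AHRKO at an adjusted p under 0.05 (Ly6e and Ly6c2) and 0 lower, nor was any lower at an unadjusted p under 0.05 or by DESeq2 or limma-voom. Over all tested genes 29.5% were called, 15.9% higher and 13.6% lower. Because the genes were chosen with this contrast known, nothing is read from the comparison of those shares. The same 2 genes were the ones whose groups did not overlap, where 6.03% of all tested genes had every AHRKO library above every WT library and 7.35% every AHRKO library below.

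**Figure D1:**
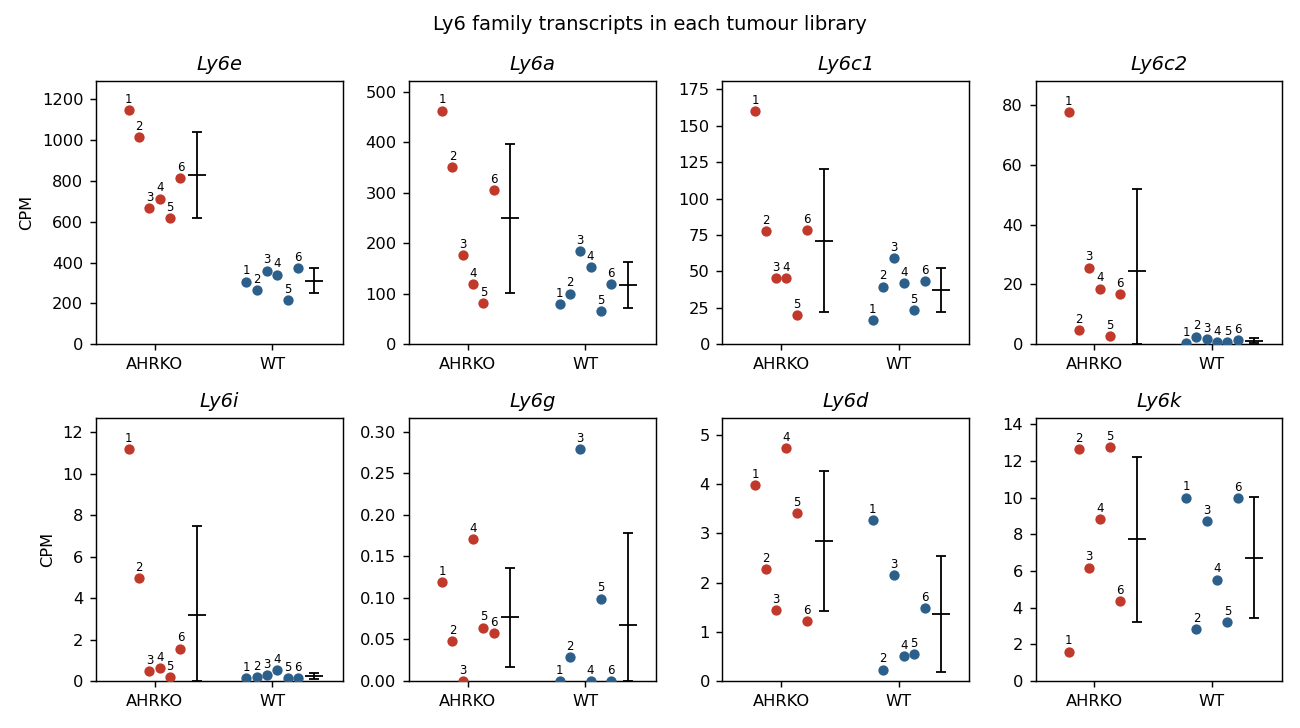
CPM of each of the 8 Ly6 genes (vertical axis, linear, a scale of its own in every panel) in the 6 AHRKO libraries (red) and the 6 WT libraries (blue); digits are replicate numbers and black bars are mean ± SD, drawn no lower than 0. Every AHRKO point lies above every WT point for Ly6e and Ly6c2, the groups overlap for the other 6 genes, and AHRKO replicate 1 is the highest library for Ly6e, Ly6a, Ly6c1, Ly6c2 and Ly6i and the lowest AHRKO library for Ly6k.

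Ly6e (ENSMUSG00000022587, mm10 chromosome 15, 74955051 to 74959905, plus strand), a broadly expressed and interferon-induced member that serves as a receptor for syncytin A in the mouse placenta, had the highest counts of the 8 genes. AHRKO replicates 1 to 6 had 1148, 1016, 667, 714, 619 and 815 CPM of Ly6e. WT replicates 1 to 6 had 307, 267, 360.4, 341, 215 and 374 CPM of Ly6e. The lowest AHRKO library was above the highest WT library, and the spread was narrow in both groups, with a coefficient of variation of 25.3% in AHRKO and 19.6% in WT. The mean was 830.1 ± 209.9 CPM in AHRKO and 311 ± 61.0 CPM in WT (SD, n = 6 each), a log2 fold change of 1.42 ± 0.18 (SE), or 2.67-fold. Leaving out single libraries moved that log2 fold change between 1.30, without AHRKO replicate 1, and 1.49. Ly6e was thereby the member with the smallest spread among libraries and, after Ly6c2, the largest fold change of the 6 tested.

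Ly6a (ENSMUSG00000075602, 74994877 to 74998031, minus strand) encodes Sca-1, a marker of mouse haematopoietic stem cells that is also found on lymphocytes, endothelium and fibroblast-like stromal cells. The AHRKO libraries 1 to 6 held 463, 351, 176, 119, 82.0 and 306 CPM of Ly6a. In the WT libraries 1 to 6 it stood at 79.3, 100.4, 184, 153, 65.4 and 119 CPM. Replicates 1, 2 and 6 of AHRKO exceeded all WT libraries, while replicates 3, 4 and 5 lay inside the WT range. The means were 249 ± 148 CPM in AHRKO and 117 ± 45.2 CPM in WT, with a log2 fold change of 1.09 ± 0.40 (SE) that was not called. Without AHRKO replicate 1 it was 0.82.

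Ly6c1 (ENSMUSG00000079018, 75044018 to 75048830, minus strand), which encodes a Ly6C protein found on endothelium as well as on leukocytes, had a pattern close to that of Ly6a with lower counts. The 6 AHRKO libraries in turn had 160.1, 77.9, 45.6, 45.6, 19.8 and 78.1 CPM of Ly6c1. The 6 WT libraries in turn had 16.4, 39.5, 59.2, 41.7, 23.4 and 43.6 CPM. Here too replicates 1, 2 and 6 of AHRKO were above the whole WT group, and replicates 3, 4 and 5 were within it. The log2 fold change was 0.93 ± 0.43 (SE), not called, and 0.52 without AHRKO replicate 1. Without AHRKO replicate 5, the lowest AHRKO library for both genes, Ly6a stood at 1.27 and Ly6c1 at 1.13, and both were called.

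Ly6c2 (ENSMUSG00000022584, 75108158 to 75111970, minus strand) encodes the Ly6C protein by which inflammatory monocytes are recognised, and which memory T cells and plasma cells of the mouse also carry. AHRKO replicates had 77.6, 4.84, 25.6, 18.6, 2.77 and 16.7 CPM of Ly6c2, numbered 1 to 6. WT replicates had 0.336, 2.54, 1.68, 0.614, 0.596 and 1.29 CPM in the same numbering. The groups did not overlap, but only narrowly so, since AHRKO replicate 5 lay at 2.77 CPM and WT replicate 2 at 2.54 CPM. The mean was 24.3 ± 27.5 CPM in AHRKO and 1.18 ± 0.835 CPM in WT, with a log2 fold change of 4.34 ± 0.80 (SE), or 20.2-fold, and the AHRKO libraries differed among themselves by 28.0 times. Without AHRKO replicate 1 the log2 fold change was 3.50. In bulk tumour RNA, a change in the number of cells of a type and a change in RNA per cell cannot be told apart, and this holds for every gene given here.

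The paralogues Ly6c1 and Ly6c2 sit next to each other in the chromosome's order of the 8 genes and are nearly the same in their coding sequence, so their counts need care. Their 396 coding bases differed at 9 positions (97.7% identity), whereas Ly6a and Ly6i were 86.4% identical and Ly6a and Ly6c1 83.8%. The first 150 coding bases of each, from the GENCODE M21 principal transcripts and printed with the differing bases in capitals, show how few letters separate reads of the pair; 6 of the 9 differences fall in this stretch.
Ly6c1 coding start: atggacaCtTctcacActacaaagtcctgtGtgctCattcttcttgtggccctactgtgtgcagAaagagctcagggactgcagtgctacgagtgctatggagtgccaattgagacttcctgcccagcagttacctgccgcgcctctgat
Ly6c2 coding start: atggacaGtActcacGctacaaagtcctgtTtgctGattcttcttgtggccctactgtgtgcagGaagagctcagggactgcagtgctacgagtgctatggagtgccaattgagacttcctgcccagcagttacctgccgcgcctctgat

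Over whole transcripts, 10.1% of the 100-base words of Ly6c1 and 5.81% of those of Ly6c2 also occurred in another gene. For Ly6a the share was 1.45%, and for Ly6d, Ly6e, Ly6g, Ly6i and Ly6k it was 0%. Of 50-base words, 32.8% of Ly6c1, 14.4% of Ly6c2, 19.0% of Ly6a, 4.76% of Ly6i and 0.448% of Ly6g occurred in another gene. For Ly6d, Ly6e and Ly6k that share was 0%. Ly6a shared such words with Ly6c1 and Ly6i, among others. The sources used here do not give the read length, the treatment of reads that fit more than 1 gene, or the use of strand. Counts of Ly6c1, Ly6c2, Ly6a and Ly6i are therefore uncertain where they share sequence. For Ly6c1 and Ly6c2 the counts bound part of this: in WT replicate 4 there were 12 counts of Ly6c2 beside 815 of Ly6c1, a ratio of 0.0147. The ratio of Ly6c2 to Ly6c1 counts was 0.484, 0.0621, 0.562, 0.407, 0.140 and 0.213 in AHRKO replicates 1 to 6, and 0.0205, 0.0644, 0.0283, 0.0147, 0.0255 and 0.0295 in WT replicates 1 to 6. AHRKO replicate 2 fell in the WT range by this measure and the other AHRKO libraries above it, although that library was among the 3 highest for Ly6c1 itself.

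**Figure D2:**
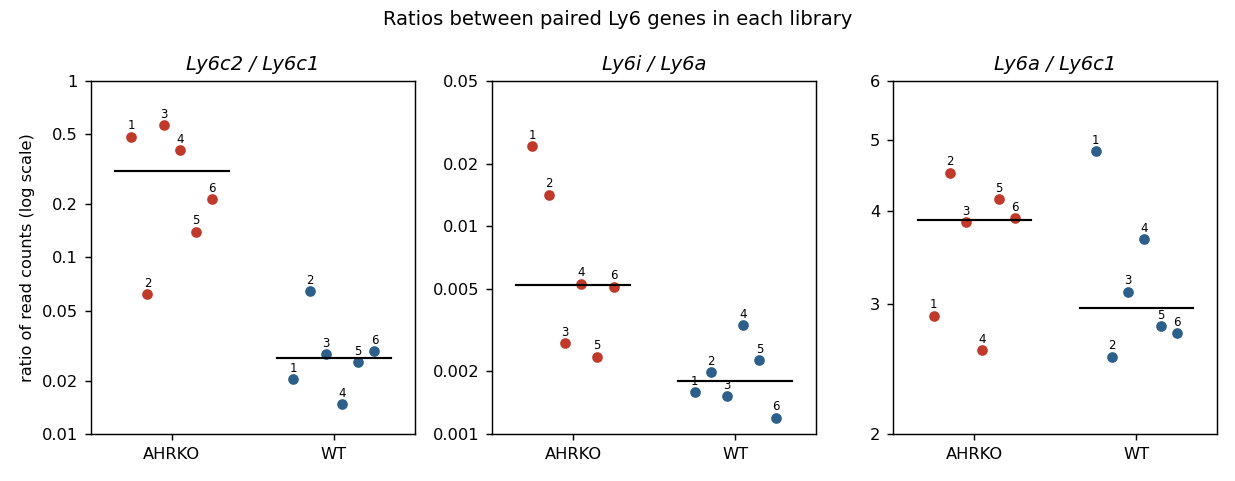
Ratio of read counts of 2 Ly6 genes in each library (vertical axes, log scale, no unit) for Ly6c2 to Ly6c1, Ly6i to Ly6a and Ly6a to Ly6c1, with AHRKO libraries in red, WT libraries in blue, replicate numbers beside the points and a line at each group's median. The Ly6c2 to Ly6c1 ratio has medians of 0.310 in AHRKO and 0.0269 in WT, while the Ly6a to Ly6c1 ratio stays between 2.55 and 4.82 over all 12 libraries.

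Promoter windows of Ly6c1 and Ly6c2, 300 bases around the start site and taken from RefSeq (GRCm38.p6, the mm10 build, minus strand), aligned over 266 bases, of which 208 were identical (78.2%), with 58 different bases and 16 gap positions. RefSeq lists 2 start sites for each gene, and the other pairings of windows were 77.6%, 86.7% and 89.3% identical over 232, 143 and 177 aligned bases. The pair with the longest aligned stretch is shown, because the 2 genes differ in their counts while their coding sequences hardly do; capitals mark bases that differ or face a gap. Ly6c1 is chr15:75048788-75049087 and Ly6c2 is chr15:75111922-75112221.
Ly6c1 promoter window: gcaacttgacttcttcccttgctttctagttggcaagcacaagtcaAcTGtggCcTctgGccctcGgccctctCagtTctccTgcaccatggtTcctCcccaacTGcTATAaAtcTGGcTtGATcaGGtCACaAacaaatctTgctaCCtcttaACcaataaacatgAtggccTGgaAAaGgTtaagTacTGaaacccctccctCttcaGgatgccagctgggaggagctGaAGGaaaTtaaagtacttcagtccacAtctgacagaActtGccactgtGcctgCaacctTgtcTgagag
Ly6c2 promoter window: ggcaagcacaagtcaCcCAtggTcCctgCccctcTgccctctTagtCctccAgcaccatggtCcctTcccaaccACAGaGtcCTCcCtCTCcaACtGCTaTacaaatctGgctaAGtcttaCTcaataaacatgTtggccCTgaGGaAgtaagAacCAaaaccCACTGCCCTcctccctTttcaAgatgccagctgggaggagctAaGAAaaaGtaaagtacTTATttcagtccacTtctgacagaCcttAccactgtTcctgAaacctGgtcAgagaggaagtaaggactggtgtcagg

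Letters of 3 binding motifs were searched on both strands: TTCNNNGAA (the gamma-activated site), GAAA followed by any 2 bases and GAAA again (the interferon-stimulated response element) and GCGTG (the core of the site bound by the aryl hydrocarbon receptor). None occurred in the 2 windows listed for each of Ly6c1, Ly6c2 and Ly6g. Among 32851 promoter windows of the same length, 8.30% held the first, 3.44% the second and 32.4% the third. The missing letters describe these windows only.

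Ly6i (ENSMUSG00000022586, 74979534 to 74983430, minus strand), a member described on mouse monocytes and macrophages, was rare. AHRKO replicates 1 to 6 had 189, 103, 7, 11, 3 and 27 counts, and WT replicates 1 to 6 had 3, 7, 6, 10, 3 and 3 counts. Replicates 1 and 2 of AHRKO held most of the 340 AHRKO counts, against 32 counts over all WT libraries, and AHRKO replicates 3 and 5 lay within the WT range in CPM. The mean CPM of 3.18 ± 4.32 in AHRKO and 0.235 ± 0.147 in WT gave a ratio of 13.5. Without AHRKO replicate 1 the AHRKO mean was 1.57 ± 1.98 CPM (SD, n = 5) and the ratio 6.68. With no filter on low counts the log2 fold change of Ly6i was 3.71 ± 0.86 (SE) and was called. Relative to Ly6a, its closest paralogue among the 8 genes, Ly6i made up 0.00236 to 0.0242 counts per Ly6a count in AHRKO and 0.00120 to 0.00334 in WT.

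Ly6g (ENSMUSG00000022582, 75155240 to 75159126, plus strand), the neutrophil antigen, was close to absent in both groups. It had at most 3 counts in an AHRKO library and at most 6 in a WT library, and 8 counts in all AHRKO against 9 in all WT libraries. No count was found in 1 AHRKO and 3 WT libraries, where 0 counts allow a level of up to 0.203 CPM (3 counts; counting error only). Of the 12 neutrophil markers, Ngp, Camp, Elane and Mpo were at or under 0.285 CPM in every library. Others were well above it: the receptor gene Csf3r had 19.7 to 142 CPM in AHRKO and 8.39 to 41.3 CPM in WT, Cxcr2 had 3.19 to 23.0 CPM in AHRKO and 1.24 to 10.3 CPM in WT, and the granule protein gene Ltf had 3.16 to 16.8 CPM in AHRKO and 2.33 to 31.7 CPM in WT. S100a8, a calcium-binding protein that monocytes carry too, reached 5.41 to 40.5 CPM in AHRKO and 1.38 to 13.4 CPM in WT.

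Ly6d (ENSMUSG00000034634, 74762056 to 74763620, minus strand), known from B cell progenitors and from squamous epithelium, was low. The AHRKO libraries had 3.98, 2.27, 1.44, 4.73, 3.41 and 1.22 CPM in order of replicate number. The WT libraries had 3.28, 0.229, 2.14, 0.512, 0.546 and 1.48 CPM in that order. AHRKO replicates 1, 4 and 5 were above every WT library and the others were not, and the log2 fold change of 1.06 ± 0.58 (SE) was not called. Ly6k (ENSMUSG00000044678, 74796874 to 74799986, minus strand), best known from testis and sperm, averaged 7.72 ± 4.51 CPM in AHRKO and 6.72 ± 3.29 CPM in WT, with a log2 fold change of 0.20 ± 0.47 (SE). Its AHRKO libraries spread between 1.602 and 12.7 CPM and its WT libraries between 2.83 and 10.0 CPM, so the AHRKO range enclosed the WT range. Ly6k also ran against the rest within AHRKO: replicate 1, highest for Ly6e, Ly6a, Ly6c1, Ly6c2 and Ly6i, was lowest for Ly6k, and replicate 5, lowest for those 5 genes, was highest.

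The members were not alike in their pattern over the 12 libraries. As a measure of likeness, each gene's log2 CPM profile was centred on its own mean and the root mean square difference between profiles was taken, with no test; all profiles share the same libraries and depths. Predicted genes, clone-named genes and pseudogenes were left out of the search, as were symbols starting with Igh, Igk, Igl, Trav or Trbv. Ly6a and Ly6c1 were the closest pair of members at 0.31 log2 units, and each was among the other's 3 nearest of the genes searched. Ly6c1 and Ly6c2 differed by 1.74 and Ly6c2 and Ly6k by 2.72, the widest pair. The nearest other genes to Ly6a were Parp12 (0.35) and Ifih1 (0.37), an RNA sensor of the interferon system. Nearest to Ly6c1 was Fgl2 (0.29), and nearest to Ly6e were Rbm43 (0.24), the proteasome activator Psme2 (0.26) and Xdh (0.26). For Ly6c2 the nearest of the genes searched were Cxcr3 (0.63), a chemokine receptor of T cells, and Mzb1 (0.73), a gene of plasma cells and marginal zone B cells. Whether an immunoglobulin gene lay nearer to Ly6c2 was not examined. For Ly6d the nearest were Duoxa1 (0.70) and Agt (0.74), and for Ly6k Dok7 (0.36) and Ncmap (0.39).

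**Figure D3:**
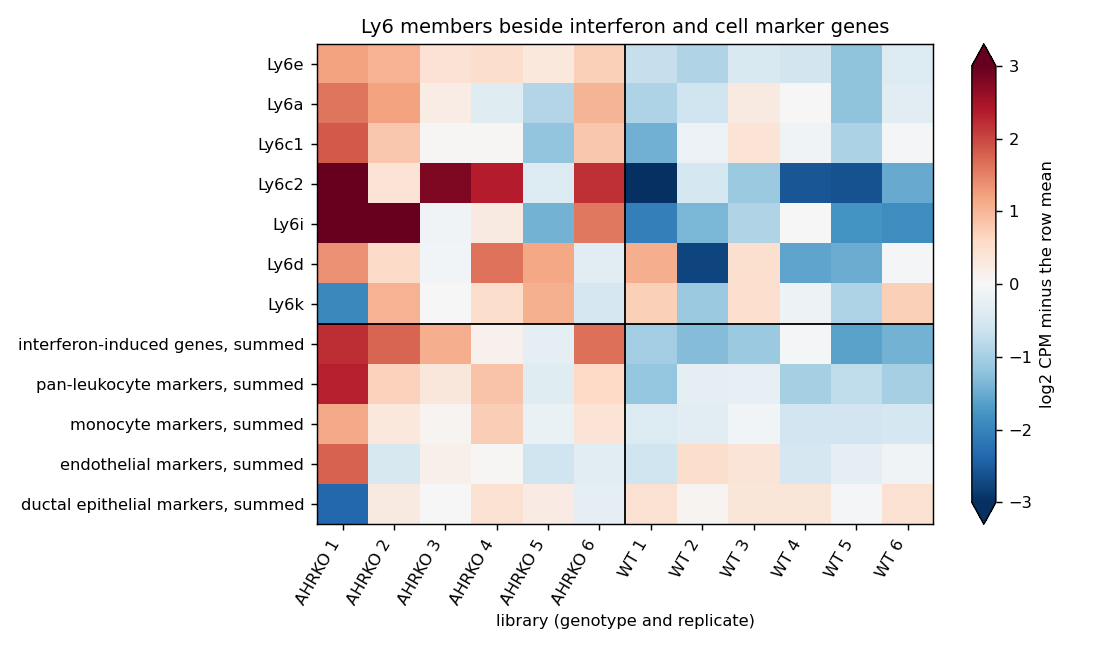
Log2 CPM of 7 Ly6 genes and of 5 summed marker lists in each library, minus the row's mean over the 12 libraries (colour, red above and blue below the mean, saturated at 3 log2 units); columns are the 6 AHRKO and then the 6 WT libraries. Ly6e is above its mean in all AHRKO libraries, Ly6a and Ly6c1 are clearly so in replicates 1, 2 and 6, Ly6c2 is strongest in replicates 1, 3, 4 and 6, and Ly6k and the ductal markers are lowest in AHRKO replicate 1.

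The relatives of these genes elsewhere in the Ly6/uPAR family did not share a direction. Of 38 relatives listed, 32 were in the table and 9 passed the filter. By edgeR 1 was called higher in AHRKO (2 at an unadjusted p under 0.05, 1 by DESeq2 and 2 by limma-voom). In each of these, 0 were lower. The median log2 fold change of the 9 was -0.24, against 0.02 over all tested genes. The one called by edgeR was Lynx1, which encodes a GPI-anchored modulator of nicotinic receptors and lies near Ly6d. Lynx1 had 19.3 ± 5.22 CPM in AHRKO and 13.01 ± 2.15 CPM in WT (log2 fold change 0.57 ± 0.18 SE, adjusted p = 0.0344, edgeR). Its call is lost without AHRKO replicate 1 and in 6 other omissions of a library. The prostate stem cell antigen gene Psca, in the same region, had 3.36 ± 1.83 CPM in AHRKO and 4.71 ± 2.11 CPM in WT (adjusted p = 0.449, edgeR). Gpihbp1, the capillary anchor of lipoprotein lipase, had 25.7 ± 10.7 CPM in AHRKO and 31.9 ± 5.28 CPM in WT (adjusted p = 0.370, edgeR). Plaur, the urokinase receptor, had 206 ± 47.7 CPM in AHRKO and 178 ± 26.0 CPM in WT (adjusted p = 0.330, edgeR). The largest log2 fold change of the 9 was that of Cd177, 1.30 ± 0.56 (SE), which was not called (adjusted p = 0.096, edgeR). Cd177 had 3.01 ± 2.05 CPM in AHRKO and 1.22 ± 1.04 CPM in WT, with 2 AHRKO libraries above every WT library. These relatives were not part of the choice of the 8 genes.

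**Figure D4:**
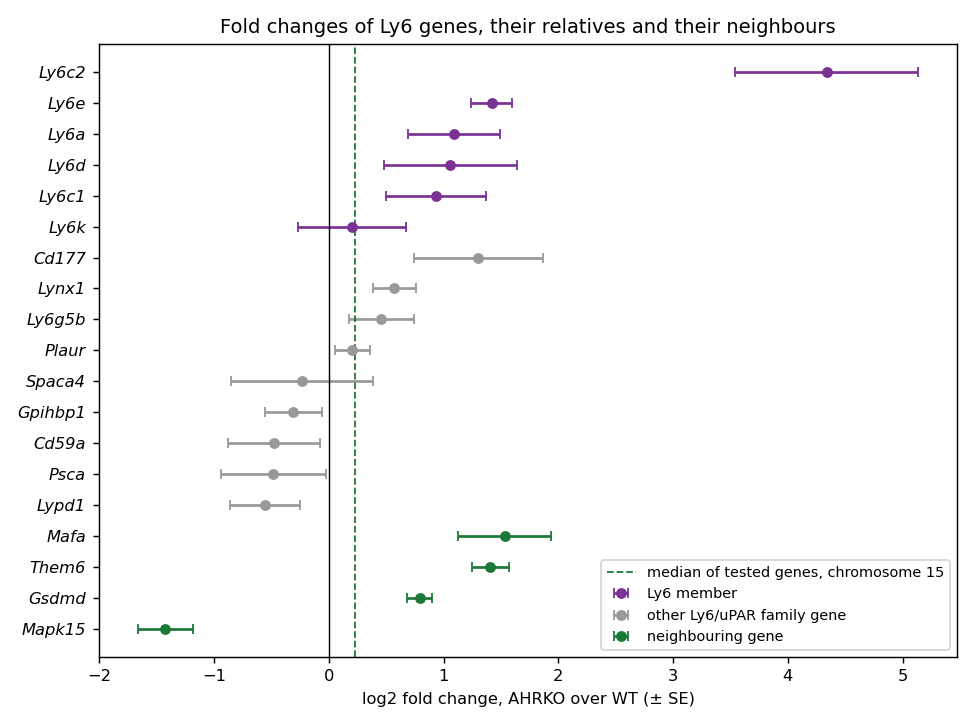
Log2 fold change, AHRKO over WT, with its standard error (horizontal axis) for the 6 tested Ly6 genes (purple), the 9 tested relatives of the Ly6/uPAR family (grey) and 4 called neighbours (green); the dashed line is the median of all tested genes on chromosome 15. Ly6c2 stands alone at 4.34, Ly6e lies at 1.42 with the neighbour Them6 beside it at 1.41, and the relatives fall on both sides of 0.

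The next list holds genes that build and attach the GPI anchor. Of 30 listed, 28 were in the table and tested, with 4 called higher in AHRKO (14.3%), 2 lower (7.14%) and a median log2 fold change of 0.03, where 15.9% of all tested genes were called higher and 13.6% lower. Gpaa1 and Pigk, both subunits of the transamidase that joins the anchor to the protein, were among the 4. Gpaa1 had 80.6 ± 10.3 CPM in AHRKO and 54.4 ± 2.94 CPM in WT (log2 fold change 0.57 ± 0.09 SE, adjusted p = 0.000867, edgeR), and it lies on chromosome 15 as well. Pigk had 58.3 ± 9.81 CPM in AHRKO and 42.8 ± 2.78 CPM in WT (adjusted p = 0.00847, edgeR). Pigz, which adds a side mannose, had 3.88 ± 1.75 CPM in AHRKO and 1.52 ± 0.490 CPM in WT (adjusted p = 0.00894, edgeR), and Pigw, which acylates the inositol, had 7.20 ± 0.987 CPM in AHRKO and 9.61 ± 0.537 CPM in WT (adjusted p = 0.0225, edgeR). Every AHRKO library was above every WT library for Gpaa1 and Pigk, and every AHRKO library was below every WT library for Pigw. Over all tested genes those shares were 6.03% above and 7.35% below.

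Interferon-induced genes rose in the AHRKO libraries without exception in the list used. All 31 of the 31 tested genes were called higher, also without AHRKO replicate 1, with a median log2 fold change of 1.88. Over all tested genes 15.9% were called higher and 13.6% lower. The list was chosen with earlier results of these data known. Mx1, an antiviral GTPase, had 15.1 ± 4.90 CPM in AHRKO and 2.32 ± 0.724 CPM in WT (log2 fold change 2.70, adjusted p = 0.000102, edgeR), and Psmb8, an immunoproteasome subunit, had 48.1 CPM in AHRKO and 6.21 CPM in WT (adjusted p = 0.000846, edgeR). The summed CPM of the list was 3662, 2624, 1675, 852, 639.7 and 2463 in AHRKO replicates 1 to 6, and 378, 316, 363, 766, 256 and 292 in WT replicates 1 to 6. From high to low the AHRKO libraries ran 1, 2, 6, 3, 4, 5 for this sum, the same order as for Ly6a. Ly6e and Ly6i differed from it only in that replicate 4 came before 3. The summed fibroblast markers, a list given below, had the same AHRKO order, so it was not particular to interferon-induced genes. In the WT libraries the interferon sum was highest in replicate 4. Ly6a and the fibroblast sum were highest in WT replicate 3, and Ly6e in WT replicate 6. The part of interferon-induced transcription in the Ly6 levels was not tested.

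Markers of leukocytes were also higher in AHRKO. All 14 pan-leukocyte markers were called higher (median log2 fold change 1.77), as were 7 of 10 monocyte, 6 of 10 macrophage, 7 of 8 dendritic cell, 10 of 10 T cell and 6 of 6 tested B and plasma cell markers, and none of these lists had a gene called lower by edgeR, also at an unadjusted p under 0.05, by DESeq2 or by limma-voom. Of all tested genes, 15.9% were called higher and 13.6% lower, and these lists too were chosen with earlier results of the data known. Without AHRKO replicate 1, 4 macrophage markers were called higher. The median log2 fold change was 1.23 for the monocyte, 1.37 for the macrophage, 1.83 for the dendritic cell, 2.84 for the T cell and 2.78 for the B and plasma cell list. Among the monocyte markers, Ccr2, the receptor that brings monocytes out of the marrow, had 49.4 ± 39.1 CPM in AHRKO and 13.2 ± 6.07 CPM in WT (log2 fold change 1.91, adjusted p = 0.00939, edgeR). Chil3, a secreted product of Ly6C-high monocytes and alternatively activated macrophages, had 122 ± 205 CPM in AHRKO and 6.29 ± 3.81 CPM in WT (log2 fold change 4.29, adjusted p = 0.0101, edgeR). AHRKO replicate 4 alone had 532 CPM of Chil3, and without it the log2 fold change was 2.69. Summed monocyte markers were 2201, 1238, 1065, 1669, 874 and 1321 CPM in AHRKO replicates 1 to 6, and 758, 801, 951, 671, 676 and 698 CPM in WT replicates 1 to 6. Plac8 and Cd14 were large parts of this sum in most libraries. Plac8 had 193 CPM in AHRKO replicate 1, 328 to 457 CPM in the other AHRKO libraries and 257 to 339 CPM in WT. In AHRKO replicate 4 the largest part was Chil3. The order of the monocyte sum given below therefore does not stand for every monocyte marker. B and plasma cell markers summed to 286, 17.2, 194, 136, 18.2 and 63.8 CPM in AHRKO replicates 1 to 6, and to 5.59, 22.9, 14.4, 7.47, 10.4 and 21.8 CPM in WT replicates 1 to 6. From high to low the AHRKO libraries ran 1, 3, 4, 6, 2, 5 for Ly6c2. The summed endothelial markers, a list given below, had exactly that AHRKO order. It was 1, 3, 4, 6, 5, 2 for the B and plasma cell sum, 1, 6, 2, 3, 4, 5 for the T cell sum and 1, 4, 6, 2, 3, 5 for the monocyte sum. T cell markers summed to between 20.3 and 262 CPM in AHRKO and between 5.09 and 21.8 CPM in WT, and pan-leukocyte markers to between 457 and 2945 CPM in AHRKO and between 263 and 495 CPM in WT. The part of these cells in the Ly6 levels was not tested.

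The remaining lists cover further cell types that can carry Ly6 genes or make up the tumour. The shares called over all tested genes were 15.9% higher and 13.6% lower. Without AHRKO replicate 1, calls over the whole table rose from 2451 to 2980 higher and from 2106 to 2778 lower. Of 12 neutrophil markers 8 were tested (median log2 fold change 1.22) and 2 called higher, Retnlg and Mmp8 (1 without AHRKO replicate 1), with a summed level of 192 to 615 CPM in AHRKO and 107 to 509 CPM in WT. The median of that sum was 279 CPM in AHRKO and 332 CPM in WT. Most of it was Mmp9, which was not called and had 121 to 318 CPM in AHRKO and 77.8 to 412 CPM in WT. None of the 10 endothelial markers (median 0.59) was called by edgeR, also at an unadjusted p under 0.05, by DESeq2 or by limma-voom; Pecam1 had 153 ± 115 CPM in AHRKO and 92.3 ± 39.4 CPM in WT (log2 fold change 0.73, adjusted p = 0.193, edgeR; 0.22 without AHRKO replicate 1), and the list's sum was 1678 CPM in AHRKO replicate 1, 329 to 554 CPM in the other AHRKO libraries and 326 to 715 CPM in WT. None of the 10 fibroblast markers (median -0.28) was called by edgeR (0 at an unadjusted p under 0.05, 0 by DESeq2 and 3 lower by limma-voom). None of the 10 ductal markers (median -0.73) was called by edgeR either (3 lower at an unadjusted p under 0.05, 2 lower by DESeq2 and 2 by limma-voom). Without AHRKO replicate 1 there were 6 fibroblast markers called lower, and 1 ductal marker called higher and 1 lower. The squamous list had 3 of 10 genes tested (median -0.61) and 1 called, Ivl, lower in AHRKO. Without AHRKO replicate 1 there were 2 called higher and 2 lower. The list's sum was 85.2 to 88.2 CPM in AHRKO replicates 2 to 5, above the 20.4 to 51.0 CPM of the WT libraries. It was 6.65 CPM in AHRKO replicate 1 and 32.3 CPM in replicate 6. Most of the sum was Krt14, which was not called. Krt14 had 75.0 to 80.6 CPM in AHRKO replicates 2 to 5 and 11.2 to 39.9 CPM in WT. In AHRKO replicates 1 and 6 it had 4.98 and 19.0 CPM. Of 8 germ cell markers 2 were tested (median -1.35) and 1 called, Sycp1, lower in AHRKO but not called in 10 of the 12 omissions of a library, with the list's sum between 0.593 and 1.72 CPM in AHRKO and between 1.40 and 3.02 CPM in WT; Tnp1 was at 0 in all libraries.

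Position was examined because the 8 genes are neighbours. Within 1000000 bases on either side of the cluster 66 other genes were in the table and 29 passed the filter, with 4 called higher in AHRKO (13.8%) and 2 lower (6.90%) and a median log2 fold change of 0.11. Without AHRKO replicate 1 there were 9 called higher and 4 lower. That omission also raised the calls over the whole table, from 2451 to 2980 higher and from 2106 to 2778 lower. Over the whole of chromosome 15 the counts were 177 higher (29.3%) and 21 lower (3.48%) of 604 tested genes, with a median of 0.23, against 15.9% higher and 13.6% lower over all tested genes. Them6 had 13.5 ± 2.96 CPM in AHRKO and 5.07 ± 0.713 CPM in WT (log2 fold change 1.41, adjusted p = 0.000188, edgeR), and Gsdmd, the pore-forming effector of pyroptosis, had 167 ± 10.3 CPM in AHRKO and 96.6 ± 16.6 CPM in WT (log2 fold change 0.79, adjusted p = 0.000529, edgeR). Mafa, an insulin gene activator, had 2.25 ± 1.32 CPM in AHRKO and 0.779 ± 0.402 CPM in WT (adjusted p = 0.0143, edgeR), whereas Mapk15 was lower, with 1.86 ± 0.559 CPM in AHRKO and 5.00 ± 1.22 CPM in WT (log2 fold change -1.43, adjusted p = 0.00156, edgeR). The part of position on chromosome 15 in the Ly6 levels was not tested.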

How the data were processed

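Read counts per gene were deposited by the authors as a table of whole-number counts for 12 libraries; per the submitters' processing notes, HISAT2, SAMtools, HTSeq and DESeq2 were used with mm10, with no version, annotation or strand setting given in the sources used here. Of 43432 Ensembl gene IDs, 42548 matched GENCODE M21, and they held at least 99.896% of the counts of each library. Totals of 14772343 to 35881469 counts per library set the precision, and depth limits Ly6g and Ly6i most.

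Groups followed the genotype labels. CPM were computed on totals scaled by the TMM method, and levels per kilobase used the union of exons. The AHRKO against WT comparison used edgeR 4.0.16 (quasi-likelihood test, filterByExpr, 2-sided, Benjamini-Hochberg over 15449 genes, threshold 0.05, prior count 2 for log2 CPM) in R 4.3.3, checked on simulated data; the standard error is the log2 fold change divided by the square root of F. Alternatives were RLE and upper quartile scaling, no filter, a stricter filter, DESeq2 1.42.0, limma-voom (limma 3.58.1), the replicate number as a block, and leaving out each library. No 2 libraries agreed within sampling noise (lowest chi-square per degree of freedom 13.6).

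The members and gene lists were chosen with earlier results of these data known. Named genes were the 8 members; from each list up to 4 called genes with the smallest p, or the 2 tested genes with the smallest p where none was called; up to 3 called neighbours in each direction; and the 3 genes nearest each tested member in profile. Predicted genes, clone-named genes and pseudogenes were passed over in these choices. The search by profile also left out symbols starting with Igh, Igk, Igl, Trav or Trbv. Psca, Gpihbp1, Plaur, Cd177, Krt14, Krt5, Trp63, Sprr1b, Plac8, Cd14, Mmp9 and the single neutrophil markers given beside Ly6g were added after their values were seen.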

Additional observations from a re-analysis of the deposited data

Results flagged for a closer look

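In 16 groups of 6 libraries (8 genes in 2 genotypes), the gap between the extreme library and its nearest neighbour was set against the whole range, and 2 passed Dixon's critical value for groups of this size; chance passes about 1 in 20 groups. Ly6c2 in AHRKO replicate 1 was at 77.6 CPM, with the next library at 25.6 CPM, a gap of 0.694 of the range. Ly6g in WT replicate 3 was at 0.280 CPM, with the next at 0.0993 CPM, a gap of 0.645 of the range, and this value rests on 6 counts.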

How the results depend on the processing

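The log2 fold changes of 53 genes, the tested members and the genes picked by p from the lists and neighbours, were followed through the alternative runs. None of them reversed its sign. Profiles, ratios, library orders, list medians and the genes added later were not followed. The levels of the 8 genes on unscaled totals moved by less than their SD. Ly6e and Ly6c2 were called under every alternative; the number of Ly6 genes called higher was 3 with DESeq2, with voom and with no filter, and ran from 2 to 5 over single omissions, with 5 without AHRKO replicate 5 and 4 without WT replicate 3. Ly6a was called with DESeq2, with voom and without WT replicate 3, AHRKO replicate 4 or AHRKO replicate 5, and Ly6c1 without AHRKO replicate 5. Ly6i was called with no filter and in the 7 single omissions in which it passed the filter (log2 fold change 3.62 to 3.996). Same-numbered libraries did not deviate together (correlations -0.47 to 0.03). These correlations cannot exclude a shared animal or batch of small effect, and the labels do not say what the replicate numbers mark. With the replicate block, 1114 genes were called higher and 1240 lower; relatives called higher came to 0, GPI genes to 2 higher and 0 lower, neighbours to 2 higher, and markers called higher to 4 pan-leukocyte, 3 monocyte, 0 macrophage, 1 neutrophil, 4 dendritic cell, 5 T cell and 1 B and plasma cell, with 0 germ cell markers lower. With no filter there were 0 relatives higher, 0 GPI genes lower, 1 neighbour lower, 1 squamous marker higher and 2 lower, and 0 germ cell markers lower, the last also with the stricter filter. Voom gave 2 relatives higher, 7 neighbours higher and 4 lower, 5 neutrophil markers higher, and 3 fibroblast, 2 ductal and 2 germ cell markers lower. DESeq2 gave 4 GPI genes and 2 ductal markers lower. The cause of these shifts was not tested.

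Over single omissions, genes called higher ran from 1822 to 2980 and lower from 1632 to 2778; relatives higher from 0 to 2; GPI genes higher from 3 to 5 and lower from 0 to 2; neighbours higher from 3 to 9 and lower from 1 to 4; monocyte markers from 5 to 9, macrophage from 4 to 9, neutrophil from 0 to 4 and dendritic cell from 5 to 7 higher; fibroblast from 0 to 6 lower; squamous from 0 to 2 higher and 1 to 2 lower; ductal from 0 to 1 in either direction; germ cell from 0 to 1 lower. The log2 fold change of Ly6d ran from 0.83 to 1.54 and that of Ly6k from 0.0049 to 0.42. The marker-list alternatives were chosen after seeing the data.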
